A study of Homo sapiens with 6 samples.

Results

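The TNF ligand and receptor superfamilies were examined in SK-Hep1 cells, a long-used human cancer line, after transfection of an oligonucleotide against miR-21. Members were the probe sets whose annotation lists a single gene with a symbol beginning with TNFRSF or TNFSF, together with FAS, FASLG, TNF, LTA, LTB, LTBR, CD40, CD40LG, CD27, CD70, EDA2R, EDAR and NGFR. This gave 90 of 41091 single-gene probe sets, for 45 genes. CD40LG had no such probe set. Of the 45 genes, 15 encode ligands, 27 encode receptors and 3 are noncoding transcripts of receptor loci.

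The study held 6 arrays, 1 per sample, in 2 groups of 3. The mock group went through the lipid transfection with no oligonucleotide, the other group received anti-miR-21 at 20 nM, and both were collected 16 hours later. All cells were SK-Hep1, and there was no group given a control oligonucleotide, so effects of any oligonucleotide and of blocking miR-21 cannot be told apart. The samples are labelled total RNA, although the collection protocol refers to an Argonaute immunoprecipitation, so the fraction that was hybridised is uncertain.

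Ligands of the TNF superfamily are membrane proteins or shed cytokines that cluster their receptors. Receptors with a cytoplasmic death domain (FAS, the TNFSF10 receptors and TNFRSF1A among them) can recruit FADD or TRADD and caspases, other receptors recruit TRAF adaptors directly and activate NF-κB, and decoy receptors bind ligand without transmitting a full signal. In liver, FAS, TNF and TNFSF10 signalling are known for their part in cell death and inflammation. The microRNA blocked in the treated cells lowers the output of messenger RNAs that pair with its seed. It is shown with the seed, bases 2 to 8, in capitals, as RefSeq gives it for GRCh38.p14.
hsa-miR-21-5p: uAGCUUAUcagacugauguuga

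The deposited values are log2 expression, and a gene was called expressed where a probe set averaged 4 or more over the 6 arrays. The number of probe sets at or above 4 ran from 22277 to 22591 over the arrays. Arrays of a group correlated at 0.996 to 0.998 over expressed probe sets, and arrays of different groups at 0.994 to 0.997. On the first principal component, which held 50.4% of the variance, anti-miR-21 replicate 1 lay at 3.51, nearer to the mock arrays (-19.95 to -7.25) than replicates 2 and 3 did (20.11 and 19.63). The line showed mesenchymal transcripts (5 of 6 markers expressed), with VIM at 15.71 and FN1 at 13.67. Of 7 hepatocyte markers measured 3 were expressed, SERPINA1 (11.92), AFP (4.22) and TF (4.02), while ALB, APOA1, APOB and TTR were not (means of 2.16 to 2.85). Of 8 endothelial markers 3 were expressed, ENG (10.36), MCAM (9.43) and TEK (4.66), while PECAM1, VWF, CDH5, KDR and TIE1 were not (2.27 to 3.06). Leukocyte markers were mostly below the filter. PTPRC was at 3.21, none of 6 T and NK cell markers was expressed, and CD79B (4.05) and CD14 (5.30) were the leukocyte markers above it, each 1 of 3 measured in its list. The summed log2 level of the T and NK cell list was 12.53 to 12.66 in mock and 12.37 to 12.71 in anti-miR-21.

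Single-gene probe sets showed a larger share of the receptors than of the ligands of the superfamily in SK-Hep1 cells. Of 45 member genes, 18 were expressed, through 31 probe sets, against 10848 of all 19775 genes with a single-gene probe set. The 18 comprised 14 of 27 receptor genes and 3 of 15 ligand genes, and the noncoding transcript TNFRSF10A-DT. The share of receptors was near that of all genes, and the share of ligands was below it. A log2 value of 1 probe set cannot be set against that of another as an amount of RNA, because probes differ in affinity, so levels below describe each gene alone. The 3 expressed genes nearest the filter were EDA2R (mean 4.53), TNFRSF10A-DT (4.66) and TNFRSF25 (4.93). The 3 just below it were TNFRSF1B (3.81), TNFRSF14-AS1 (3.78) and TNFRSF11B (3.64).

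**Figure D1:**
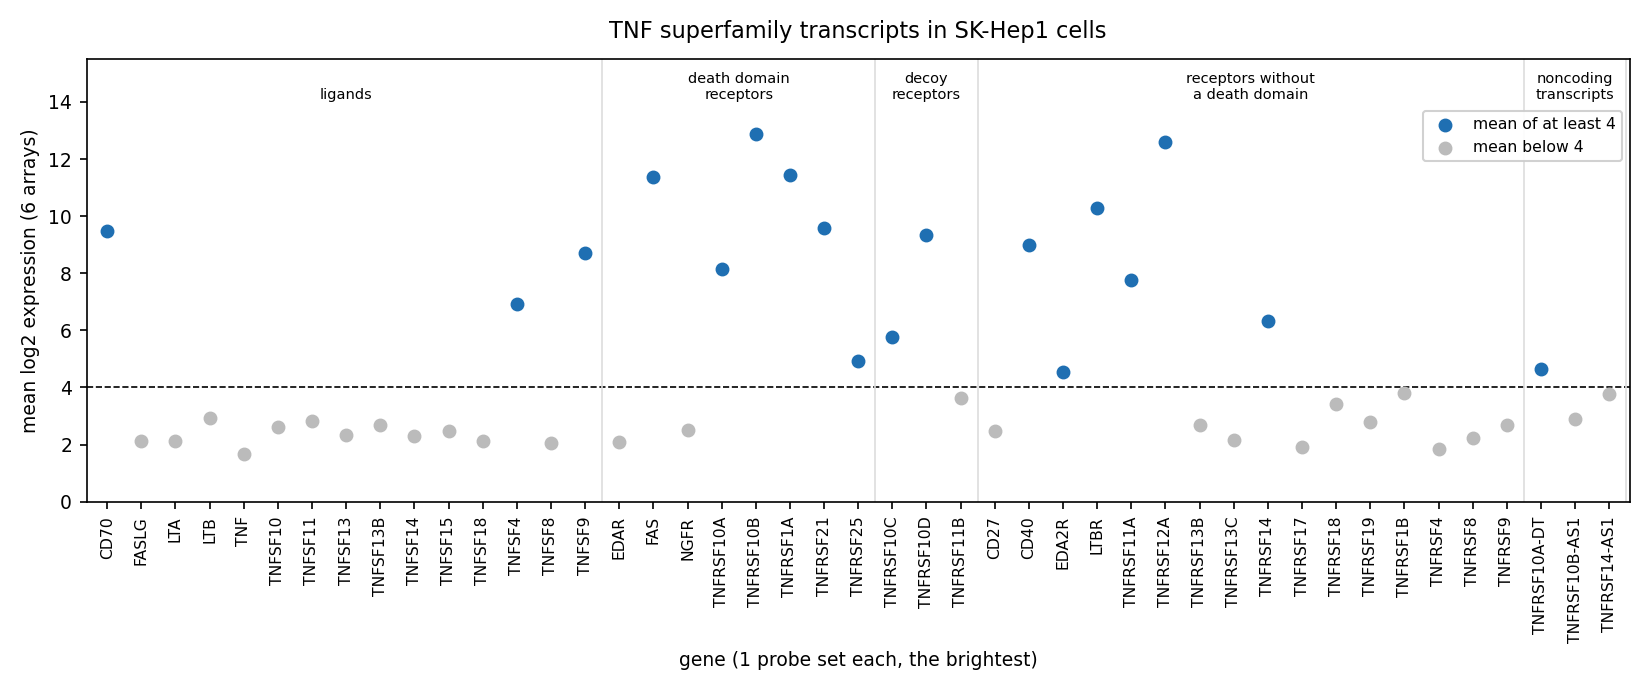
Mean log2 expression over the 6 arrays (vertical axis) of the brightest probe set of each of the 45 member genes, grouped by role, with the filter at 4 as a dashed line. The 3 expressed ligands are CD70, TNFSF4 and TNFSF9, and 12 ligands lie between 1.66 and 2.94.

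The 3 expressed ligands were costimulatory ligands of lymphocyte receptors. These were CD70, the ligand of CD27, TNFSF9, the ligand of TNFRSF9, and TNFSF4, the ligand of TNFRSF4. None of the receptors CD27 (mean 2.47), TNFRSF9 (2.70) and TNFRSF4 (1.84) was expressed. The 12 other ligands had means of 1.66 to 2.94. They included TNF itself (1.66), FASLG (2.13), TNFSF10, the ligand of the TNFRSF10 receptors (2.63), TNFSF11, the ligand of TNFRSF11A (2.84), and LTA and LTB, the lymphotoxins (2.12 and 2.94). TNFSF13, TNFSF13B, TNFSF14, TNFSF15, TNFSF18 and TNFSF8 were also below the filter, at 2.06 to 2.68. A further probe set had a mean of 7.74, but it lists TNFSF12 together with the read-through transcript TNFSF12-TNFSF13 and was assigned to neither, so whether the TNFSF12 ligand was expressed was not settled here (difference -0.04, limma adjusted p = 0.850).

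Several receptors were expressed without an expressed ligand. All 3 of TNFRSF1A, FAS and LTBR were expressed (brightest probe sets at 11.46, 11.38 and 10.29), while single-gene probe sets for TNF, FASLG, LTA and LTB were not. Of 8 death domain receptors 6 were expressed, TNFRSF1A, TNFRSF10A, TNFRSF10B, FAS, TNFRSF21 and TNFRSF25, and EDAR (2.09) and the neurotrophin receptor NGFR (2.53) were not. TNFRSF25 passed the filter on 216042_at only (4.93), and its other probe sets had means of 1.46 to 2.12. Of 16 receptors without a death domain 6 were expressed. These were CD40, LTBR, TNFRSF11A, TNFRSF12A, TNFRSF14 and EDA2R. Those not expressed were the lymphocyte receptors CD27, TNFRSF4, TNFRSF8, TNFRSF9, TNFRSF13B, TNFRSF13C, TNFRSF17 and TNFRSF18, and also TNFRSF19 and TNFRSF1B, with means of 1.84 to 3.81. The decoy receptors TNFRSF10C and TNFRSF10D were expressed, and TNFRSF11B, a soluble decoy for TNFSF11, was not. The antisense transcripts TNFRSF10B-AS1 (2.89) and TNFRSF14-AS1 were below the filter. A value below the filter is a dim probe set and does not show that a transcript was absent.

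The expressed genes lay beside relatives that were not expressed in some family clusters. In the RefSeq gene table LTBR and CD27 are neighbours with 0 protein-coding genes between them, as are CD70 and TNFSF14, and TNFSF4 and TNFSF18. TNFSF9 and CD70 are neighbours too, and both were expressed. Promoter windows, from 250 bases before to 50 after the start, were taken from RefSeq on GRCh38.p14. They covered 10 of 18 expressed members and 19 of 27 members not expressed. The 8 other expressed members were not included, 5 because their loci lie on a chromosome not shown here (TNFRSF10A, TNFRSF10A-DT, TNFRSF10B, TNFRSF10C and TNFRSF10D) and 3 because they had no entry in the table used (CD40, CD70 and TNFRSF12A). The windows of expressed members held a median of 20.5 CpG dinucleotides (range 4 to 37), those of members not expressed a median of 4 (0 to 27), and all 35116 windows in the table a median of 14. The ranges overlap. TNFRSF1A was expressed with 4 CpG, and TNFRSF1B was not, with 27. The windows of LTBR (29 CpG), its neighbour CD27 (3 CpG) and TNFSF9 (27 CpG) are printed on their plus strand with CpG in capitals, to show an expressed gene beside one that was not, and the ligand with the smallest p in the comparison that follows. They were chosen after their values were seen.
LTBR, chr12:6383912-6384211: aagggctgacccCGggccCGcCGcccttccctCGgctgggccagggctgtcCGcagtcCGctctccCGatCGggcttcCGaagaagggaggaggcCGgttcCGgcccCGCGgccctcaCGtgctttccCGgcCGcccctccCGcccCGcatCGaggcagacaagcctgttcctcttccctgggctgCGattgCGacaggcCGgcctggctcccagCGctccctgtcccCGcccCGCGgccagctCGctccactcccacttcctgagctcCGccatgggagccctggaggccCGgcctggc
CD27, chr12:6443642-6443941: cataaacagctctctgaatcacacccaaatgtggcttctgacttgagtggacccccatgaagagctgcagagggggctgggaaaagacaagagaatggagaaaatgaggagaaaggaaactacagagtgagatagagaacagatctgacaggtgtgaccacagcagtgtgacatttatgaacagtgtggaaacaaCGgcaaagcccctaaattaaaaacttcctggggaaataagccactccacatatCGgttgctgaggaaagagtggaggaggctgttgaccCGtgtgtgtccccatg
TNFSF9, chr19:6530776-6531075: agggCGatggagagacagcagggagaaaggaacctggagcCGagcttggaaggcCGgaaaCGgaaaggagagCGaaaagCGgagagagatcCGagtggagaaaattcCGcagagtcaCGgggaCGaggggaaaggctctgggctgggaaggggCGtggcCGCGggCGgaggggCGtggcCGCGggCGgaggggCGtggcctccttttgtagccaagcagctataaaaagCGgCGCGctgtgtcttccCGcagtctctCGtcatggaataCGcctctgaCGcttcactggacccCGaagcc
The NF-κB motif, searched on both strands, was found in 2 of 10 windows of expressed members (TNFRSF14 and TNFRSF25), in 3 of 19 of the others and in 11.3% of all windows. The AP-1 motif TGANTCA, also on both strands, was found in 2 of 10 (FAS and EDA2R), in 5 of 19 and in 7.71% of all. These matches describe letters and not binding.

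The comparison of anti-miR-21 with mock asked whether blocking miR-21 moved these genes. No member gene was called on its brightest probe set. Of 18 tested, 0 were higher and 0 lower by limma at an adjusted p of 0.05, against 0.913% of 10848 genes called higher and 1.22% called lower. At an unadjusted limma p of 0.05, 2 of 18 (11.1%) passed, against 18.1% of all genes. The arrays of the groups did not overlap for 6 of 18 members (33.3%), against 25.5% of all genes. The median log2 difference, anti-miR-21 minus mock, was 0.06 over the members and -0.02 over all genes, with 13 members above 0 and 5 below. On the brightest probe sets, the 95% interval of the difference lay inside a 1.5-fold change in either direction for 16 of 18 members. TNFRSF10A and TNFRSF10C were the exceptions. Over all expressed member probe sets the interval lay inside for 27 of 31. The CD40 probe set 35150_at (-0.60 to -0.33) and the TNFRSF10B probe set 210405_x_at (-0.01 to 0.60) were among those outside. With settings changed or an array left out, and 1 value per gene, 0 member genes were called in each of 14 alternatives.

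**Figure D2:**
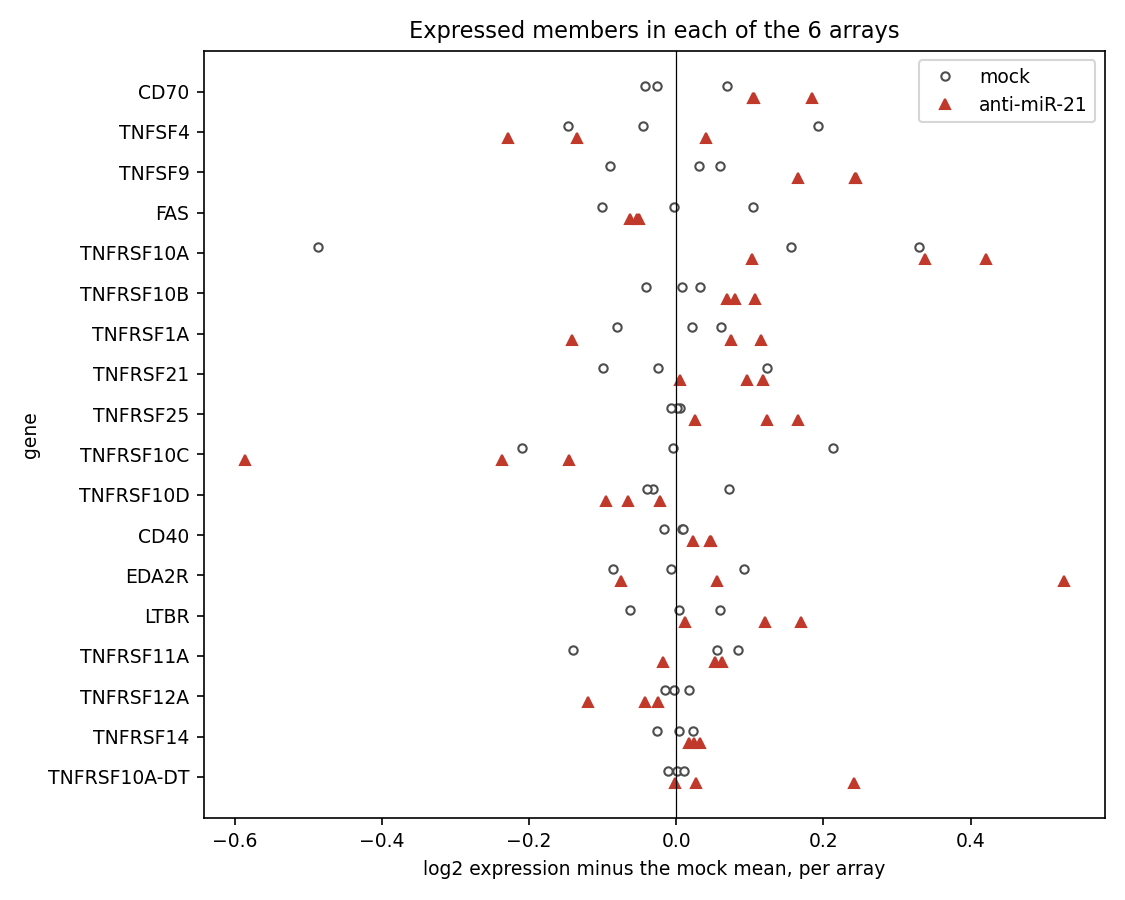
Log2 expression minus the mock mean (horizontal axis) for the 18 expressed member genes in each array, with mock arrays as open circles and anti-miR-21 arrays as triangles. TNFSF9 and CD70 have all 3 anti-miR-21 arrays above the mock arrays, and most other genes overlap.

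Among the ligands, TNFSF9 had the smallest p of any member gene. Its log2 level was 8.65, 8.63 and 8.50 in mock and 8.84, 8.76 and 8.84 in anti-miR-21, so every treated array was above every mock array. The difference was 0.22 ± 0.060 (SE, n = 3 and 3), a 1.16-fold difference with a 95% interval of 0.08 to 0.36 on the log2 scale, and did not pass (limma adjusted p = 0.129). CD70 was at 9.36, 9.48 and 9.38 in mock and 9.59, 9.51 and 9.51 in anti-miR-21. Its arrays did not overlap either, but the difference of 0.13 ± 0.055 (SE) did not pass (limma adjusted p = 0.281). TNFSF4 varied within groups, with means of 6.96 ± 0.17 in mock and 6.86 ± 0.14 in anti-miR-21 (SD, n = 3, limma adjusted p = 0.651).

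The death domain receptors showed no called change. TNFRSF10B, a TNFSF10 receptor, was at 12.87, 12.80 and 12.85 in mock and 12.92, 12.95 and 12.91 in anti-miR-21 on its brightest probe set. The groups were separate but close, with a difference of 0.09 ± 0.048 (SE) and a 95% interval of -0.03 to 0.20 (limma adjusted p = 0.403). Its other probe sets, 210405_x_at and 209294_x_at, belong to a type that can cross-hybridise with other transcripts. The first was at 9.48, 9.29 and 9.38 in mock and 9.39, 9.80 and 9.84 in anti-miR-21. Anti-miR-21 replicate 1 stayed within the mock range there, and replicates 2 and 3 lay above it. Its difference was 0.29 over all arrays (limma adjusted p = 0.292) and 0.44 when treated replicate 1 was left out (limma adjusted p = 0.0452). The second had a difference of 0.22 (limma adjusted p = 0.301). Replicate 1 is also the treated array nearest to mock over all genes, and its part in this value was not tested beyond leaving it out.

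TNFRSF10A, the other TNFSF10 receptor with a death domain, was measured unevenly. Its brightest probe set was at 8.35, 7.53 and 8.18 in mock and 8.12, 8.44 and 8.36 in anti-miR-21. Mock replicate 2 lay well below the rest, and the difference of 0.29 ± 0.209 (SE, 95% interval -0.21 to 0.79) did not pass (limma adjusted p = 0.523). It was 0.04 when mock replicate 2 was left out and 0.45 when mock replicate 1 was. Its 3 probe sets had differences from -0.12 to 0.29, on both sides of 0. The divergent noncoding transcript TNFRSF10A-DT was at 4.62, 4.63 and 4.61 in mock and 4.62, 4.65 and 4.86 in anti-miR-21 (limma adjusted p = 0.570). Anti-miR-21 replicate 3 alone stood above the other 5 arrays.

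FAS was at 11.31, 11.52 and 11.41 in mock and 11.36, 11.35 and 11.36 in anti-miR-21, with overlapping groups. Its 4 expressed probe sets all had small negative differences, from -0.16 to -0.05, of which 204781_s_at (-0.16 ± 0.062 SE) had the smallest p (limma adjusted p = 0.252). TNFRSF1A, the main receptor of TNF on most cells, was at 11.51, 11.37 and 11.47 in mock and 11.31, 11.52 and 11.56 in anti-miR-21. Treated replicate 1 was the lowest of the 6 arrays and replicate 3 the highest, and the difference of 0.02 ± 0.082 (SE, limma adjusted p = 0.938) took either sign over the alternatives. TNFRSF25, the receptor of TNFSF15, was dim, at 4.887, 4.883 and 4.875 in mock and 5.047, 5.005 and 4.908 in anti-miR-21. The arrays did not overlap, and the difference did not pass (0.10 ± 0.054 SE, limma adjusted p = 0.371). TNFRSF21, a receptor that can induce cell death and is studied mainly in neurons and immune cells, had differences of 0.07 on both of its probe sets (limma adjusted p = 0.645 and 0.745).

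The 2 decoy receptors expressed on single-gene probe sets had negative differences that did not pass. TNFRSF10C, a membrane-anchored decoy for TNFSF10, was at 5.92, 6.14 and 5.72 in mock and 5.69, 5.34 and 5.78 in anti-miR-21. The groups overlapped, and the difference of -0.32 ± 0.146 (SE, 95% interval -0.67 to 0.03) did not pass (limma adjusted p = 0.310). In 2 further probe sets that list TNFRSF10C with a second locus, and so were not assigned to it, the differences were 0.04 and -0.13 (limma adjusted p = 0.694 and 0.692). TNFRSF10D, a decoy with a truncated death domain, had a difference of -0.06 ± 0.054 (SE, limma adjusted p = 0.601). TNFRSF10A, TNFRSF10B, TNFRSF10C and TNFRSF10D are neighbours of related sequence, so their separate values are uncertain where probes cross-hybridise. TNFRSF11B, below the filter, was at 3.54, 3.50 and 3.35 in mock and 3.45, 3.61 and 4.39 in anti-miR-21, and was not tested in this fit. Anti-miR-21 replicate 3 stood above the other 5 arrays, and the difference of 0.35 was 0.06 when it was left out. With no filter, 0 member probe sets were called higher and 1, the CD40 probe set 35150_at, was called lower.

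CD40, the receptor through which T cells activate B cells and antigen-presenting cells, gave a different value on each probe set. The probe set 35150_at was at 8.68, 8.77 and 8.63 in mock and 8.27, 8.21 and 8.19 in anti-miR-21, so all treated arrays lay below all mock arrays. It fell by 0.47 on the log2 scale, a 1.38-fold difference (SE 0.057, 95% interval -0.60 to -0.33, limma adjusted p = 0.0149). It was the only 1 of 31 expressed member probe sets to be called, against 2.17% of 22408 probe sets. The brightest CD40 probe set, 215346_at, was at 8.99, 8.99 and 8.97 in mock and 9.01, 9.03 and 9.03 in anti-miR-21. It lay slightly higher in every treated array, with a difference of 0.04 ± 0.045 (SE, 95% interval -0.07 to 0.14, limma adjusted p = 0.698). The third, 205153_s_at, was scattered, at 8.58, 8.76 and 9.00 in mock and 8.80, 8.30 and 8.57 in anti-miR-21 (difference -0.22 ± 0.151 SE, limma adjusted p = 0.487).

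Within each array, 35150_at minus 215346_at was -0.31, -0.23 and -0.34 in mock and -0.73, -0.82 and -0.84 in anti-miR-21. The mean of this difference was therefore shifted by -0.51 in anti-miR-21, a comparison chosen after the values were seen. A two-sided exact permutation test gave p = 0.1, the smallest that 3 arrays against 3 allow. That p adds no support. With 35150_at lower and 215346_at higher in every treated array, the groups had to separate on this difference. With the 3 averaged, CD40 had a difference of -0.22 and did not pass (limma adjusted p = 0.128). The call of 35150_at was lost when mock replicate 2, treated replicate 2 or treated replicate 3 was left out (limma adjusted p = 0.077, 0.0757 and 0.0731) and with the replicate number as a block (0.0882), each with the difference still negative. These data do not give a direction for CD40 as a gene.

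**Figure D3:**
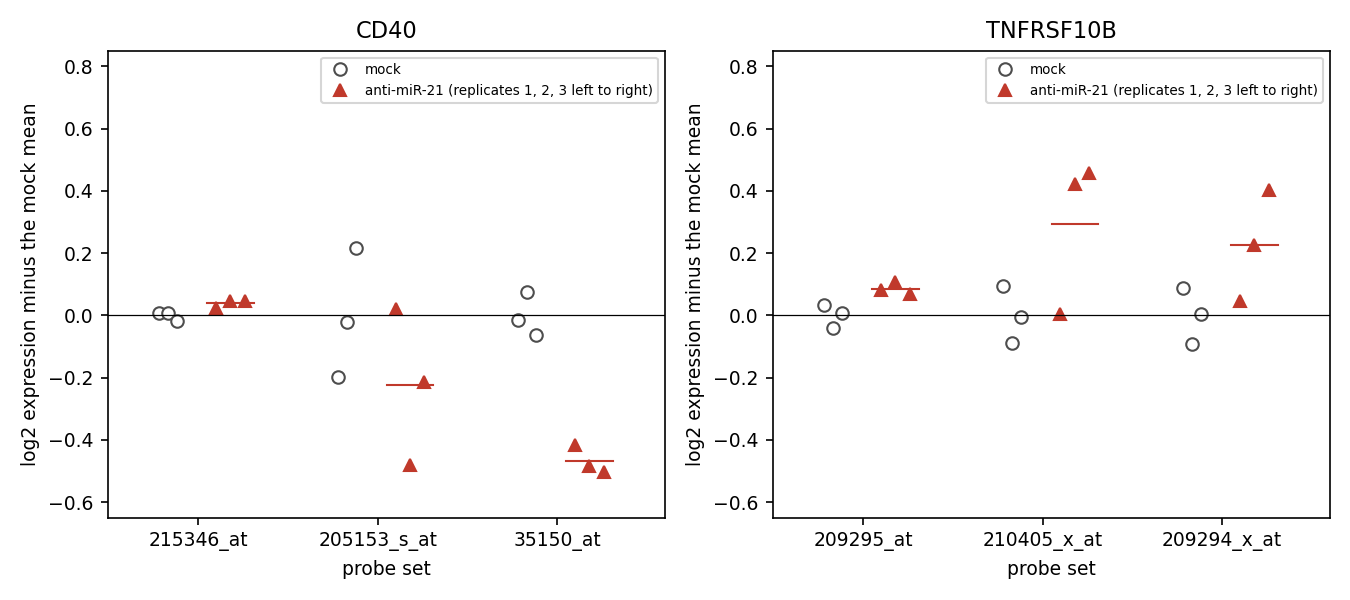
Log2 expression minus the mock mean (vertical axis) in each array for the 3 expressed probe sets of CD40 (left) and of TNFRSF10B (right), with mock as open circles, anti-miR-21 as triangles and a line at the treated mean. The CD40 probe set 35150_at lies at -0.47 on average and 215346_at at 0.04, and for the TNFRSF10B probe set 210405_x_at treated replicates 2 and 3 lie above replicate 1.

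The other receptors without a death domain had small differences, none of which passed. TNFRSF12A, the receptor of TNFSF12 and a gene induced by growth factors, was at 12.62, 12.65 and 12.63 in mock and 12.59, 12.51 and 12.61 in anti-miR-21. The treated arrays were all lower, by 0.06 on average (difference -0.06 ± 0.050 SE, 95% interval -0.18 to 0.06, limma adjusted p = 0.559). LTBR, the lymphotoxin beta receptor, was at 10.24, 10.18 and 10.30 in mock and 10.25, 10.36 and 10.41 in anti-miR-21, with overlapping groups (difference 0.10 ± 0.063 SE, limma adjusted p = 0.456). TNFRSF11A, the receptor of TNFSF11 that drives osteoclast formation, had a difference of 0.03 (95% interval -0.14 to 0.20) and TNFRSF14, a receptor of TNFSF14 and LTA, of 0.02 (-0.08 to 0.13). EDA2R, an ectodysplasin receptor, was the least even of the group, with means of 4.45 ± 0.09 in mock and 4.62 ± 0.32 in treated arrays (SD, n = 3, limma adjusted p = 0.609).

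**Figure D4:**
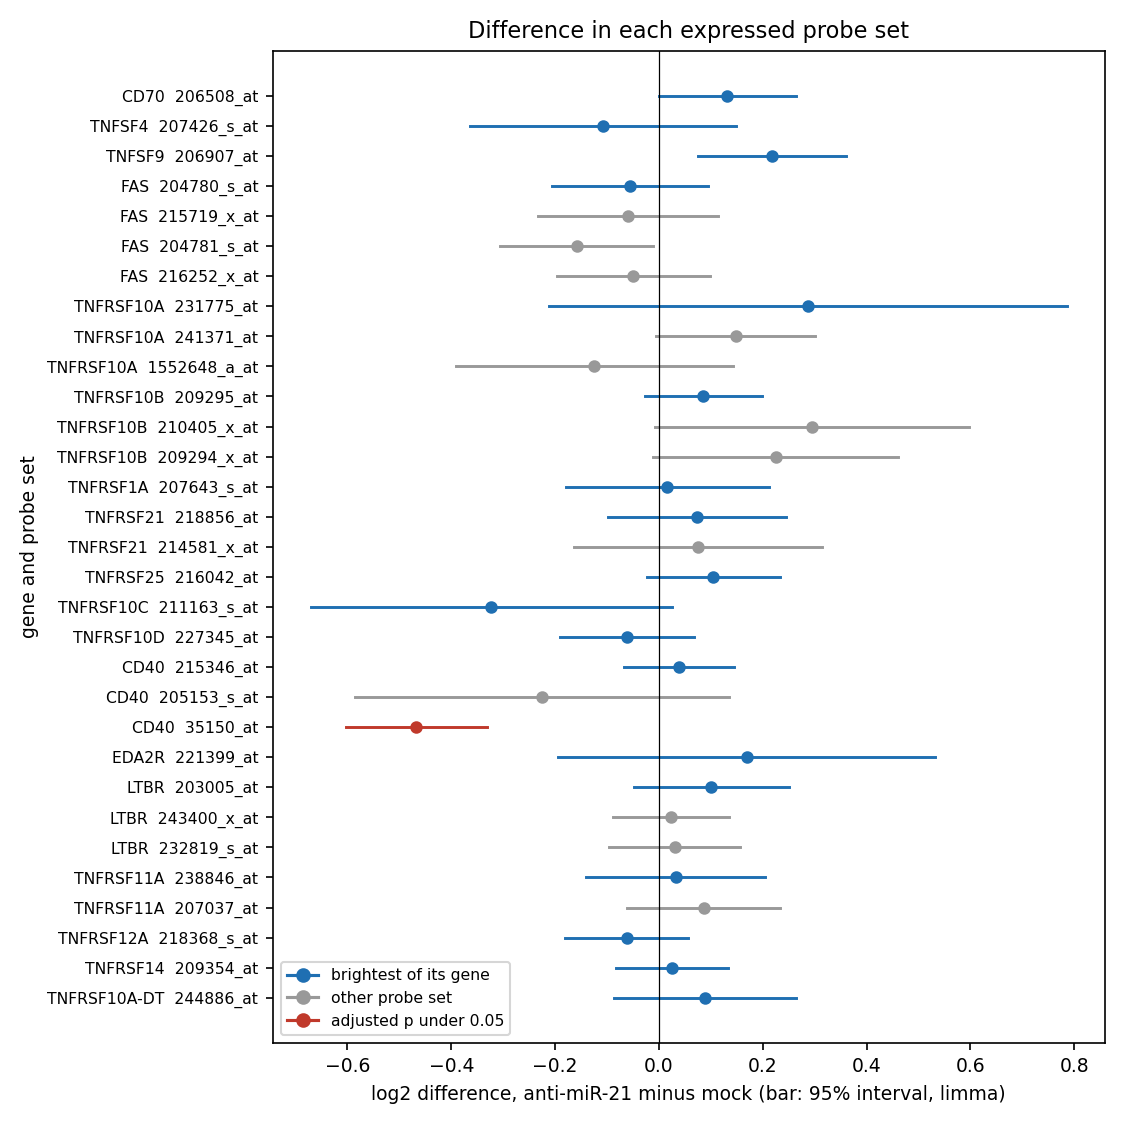
Log2 difference, anti-miR-21 minus mock (horizontal axis), with its 95% interval for the 31 expressed member probe sets, blue for the brightest of a gene, grey for others and red where the limma adjusted p is under 0.05. The red point is the CD40 probe set 35150_at at -0.47, and the widest interval is that of TNFRSF10A.

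Genes of TNF receptor signalling, mainly adaptors, ubiquitin ligases, caspases and kinases, were read from a list of 52. It also held ADAM10, ADAM17 and RHBDF2, which do not act below the receptors. Of the list, 41 genes were tested, 5 were below the filter and 6 had no single-gene probe set. Of the 41, 2 fell (CHUK and CYLD), none rose and 39 did not pass, against 1.22% of all genes called lower and 0.913% called higher. The median difference was 0.03, with 25 above 0 and 16 below. CHUK, a catalytic subunit of the IκB kinase complex, was at 10.75, 10.51 and 10.39 in mock and 9.76, 9.85 and 9.67 in anti-miR-21. All treated arrays were lower, and CHUK fell by 0.79 on the log2 scale, a 1.73-fold difference (SE 0.101, limma adjusted p = 0.0174). That call was lost when mock replicate 2, treated replicate 2 or treated replicate 3 was left out (limma adjusted p = 0.0805, 0.0616 and 0.0731) and with the replicate block (0.055). The other kinase subunits IKBKB and IKBKG had differences of 0.04 and -0.08 on their brightest probe sets (limma adjusted p = 0.681 and 0.521). A second IKBKG probe set, 36004_at, was lower in every treated array but did not pass (-0.25 ± 0.085 SE, limma adjusted p = 0.197). The further IKBKB probe sets had differences of -0.01 and 0.03.

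CYLD, a deubiquitinase that limits NF-κB signalling, was at 8.62, 8.60 and 8.56 in mock and 8.30, 8.31 and 8.33 in anti-miR-21. The groups were clearly separate and CYLD fell by 0.28 on the log2 scale, a 1.22-fold difference (SE 0.046, limma adjusted p = 0.0338). A second probe set, 213295_at, also fell, by 0.37 (limma adjusted p = 0.0270), and the other 2 expressed ones had differences of -0.30 and -0.10 (limma adjusted p = 0.0808 and 0.832). The call on the brightest probe set was lost with any 1 array left out (limma adjusted p = 0.0676 to 0.146), with the replicate block (0.182), with probe sets averaged (0.0805) and with the trend and robust setting (0.0503).

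Of the genes with the next smallest p, BIRC2, a ubiquitin ligase of the TNF receptor complex, was at 13.02, 13.00 and 12.97 in mock and 13.24, 13.23 and 13.25 in anti-miR-21. The groups were well apart, but the difference of 0.24 ± 0.045 (SE) fell just short (limma adjusted p = 0.0522), and it passed under 5 of the 14 alternatives (0.0168 to 0.0471). TNFAIP3, a ubiquitin-editing inhibitor of NF-κB, had a difference of 0.18 ± 0.051 (SE, limma adjusted p = 0.142). MAP3K5, a stress kinase, had 0.34 ± 0.110 and TRAF6, an adaptor ligase, -0.19 ± 0.065 (SE, limma adjusted p = 0.183 and 0.197). The adaptors that sit on death domain receptors had differences of -0.24 (TRADD) and -0.15 (FADD) on their brightest probe sets. The initiator caspase CASP8 had 0.06 and its inhibitor CFLAR 0.03. None of these passed (limma adjusted p = 0.213, 0.411, 0.713 and 0.818). TRADD was lower in every treated array on that probe set and on 1729_at, which did not pass either (-0.25 ± 0.074 SE, limma adjusted p = 0.149).

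**Figure D5:**
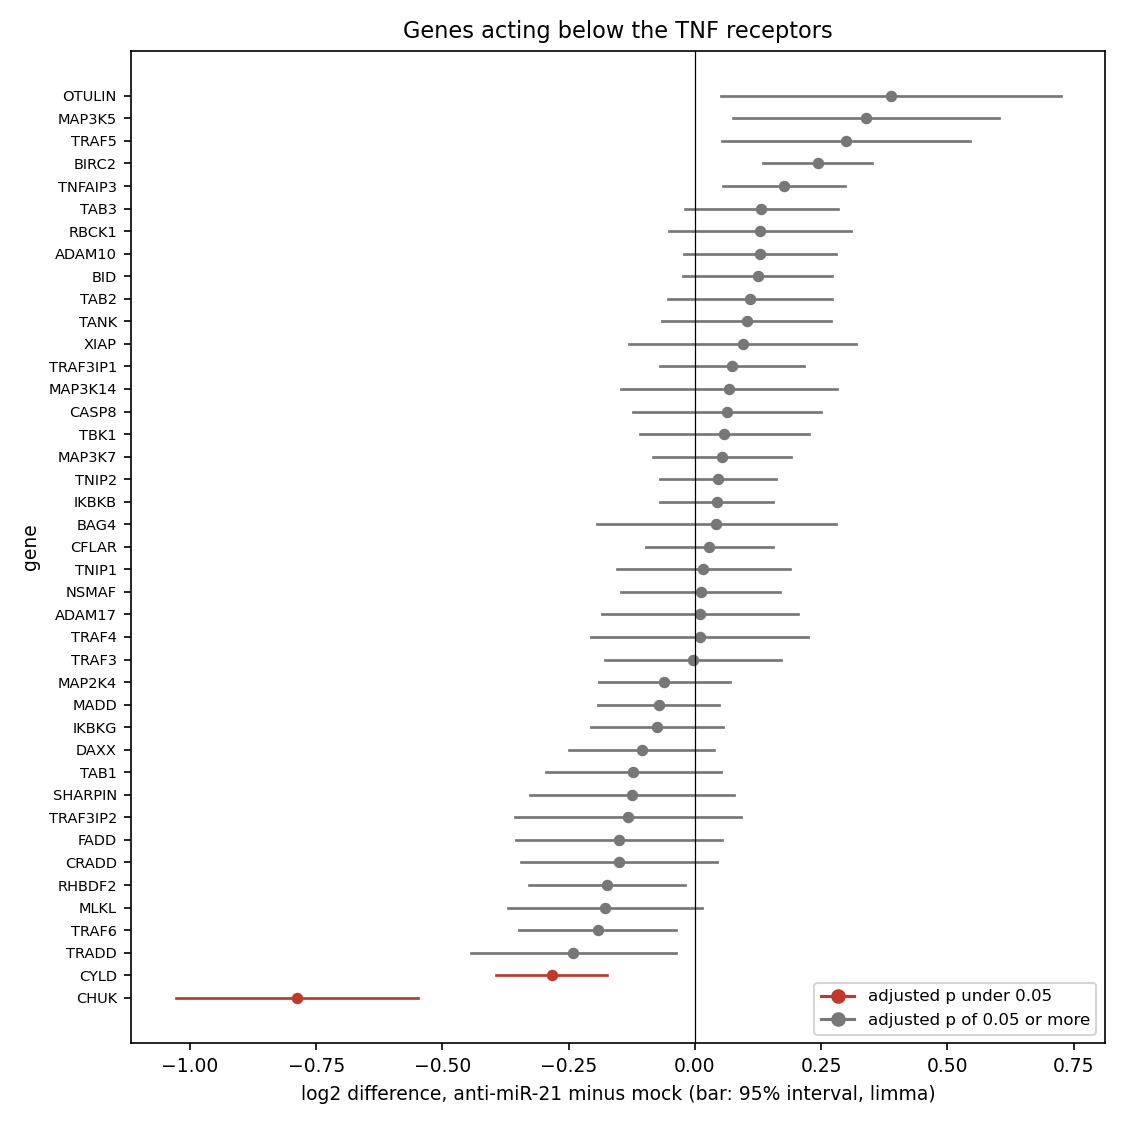
Log2 difference, anti-miR-21 minus mock (horizontal axis), with its 95% interval for the 41 tested genes of the TNF receptor signalling list, red where the limma adjusted p is under 0.05. CHUK at -0.79 and CYLD at -0.28 are red, and BIRC2 at 0.24 has an adjusted p of 0.0522.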

How the data were processed

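Per the submitters' processing notes the authors used GCRMA, and they deposited its log2 values for 54675 probe sets, with version and settings not given in the sources used here. GCRMA corrects background by probe sequence, normalizes arrays and draws dim probe sets to a low common level, so differences near that level are compressed. No scanner files were used here, and the number of arrays limits the precision. Names came from the platform annotation, with symbols updated by Entrez identifier against RefSeq (GRCh38.p14, 0 symbols changed). Probe sets listing several genes were assigned to none.

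Probe sets with a mean log2 of at least 4 were kept (22408), and the brightest single-gene probe set stood for a gene. Groups came from the sample titles. The test was limma 3.58.1 (R 4.3.3) with lmFit and eBayes and no covariate. It was two-sided, and p values were adjusted by Benjamini-Hochberg over all kept probe sets, with a threshold of 0.05. The replicates are called biological, with no word on separate cultures, so the p values reflect the spread among these samples, which may be technical. Data were also simulated over 22408 probe sets with independent normal noise and no effect shared by the probe sets of an array. There, 85 of 100 changes of 1.5-fold and 99 of 100 of 2-fold were recovered, with 8 false calls. Recovery in the real arrays may be lower, as their deviations need not be independent.

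Members and lists were chosen with earlier results of these data known. Values in every array are given for members called on any probe set, then for the smallest p up to 10, and for the 4 brightest. From the signalling list the called genes and the next 4 by p are given, and IKBKB, IKBKG, TRADD, FADD, CASP8 and CFLAR were added after their values were seen. Alternatives were no filter, a filter at 6, median centring, quantile normalization, limma's trend and robust setting, averaged probe sets, no _x_at or _s_at probe sets, a replicate block and each array left out.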

Additional observations from a re-analysis of the deposited data

Results flagged for a closer look

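A probe set left out of the comparisons because it lists several genes differed clearly between the groups. Of 8 probe sets that list a family symbol beside another gene, 4 had a mean of at least 4, and 206467_x_at was the 1 of them called. Its annotation lists TNFRSF6B, a soluble decoy receptor that binds FASLG, together with the read-through transcript RTEL1-TNFRSF6B, and it was assigned to neither. It was at 11.21, 11.20 and 11.21 in mock and 11.91, 11.92 and 11.87 in anti-miR-21, so every treated array was above every mock array. The difference of 0.70 ± 0.045 (SE), a 1.62-fold difference with a 95% interval of 0.59 to 0.80 on the log2 scale, passed (limma adjusted p = 0.00208). It passed in each of the 13 alternatives in which this probe set could be tested, with adjusted p values from 0.000695 to 0.0373, the highest with the replicate block. Like the TNFRSF10B probe sets of the _x_at type, it can cross-hybridise with other transcripts, so which transcript it reads is uncertain. The probe set was singled out after its values were seen.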

How the results depend on the processing

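With 1 value per gene, the count of member genes called was 0 in both directions under all 14 alternatives. The lowest adjusted p of any member gene in them was 0.105. Single probe sets were called. The CD40 probe set 35150_at passed in most settings that tested it (limma adjusted p = 0.00939 with the filter at 6). The TNFRSF10B probe set 210405_x_at passed with treated replicate 1 left out (0.0452). At an unadjusted limma p of 0.05, between 1 and 4 members passed. Not every member could be tested in each alternative. With the filter at 6, 14 members were tested, and with no _x_at and _s_at probe sets 13 were. The sign of the difference held in every alternative that tested the gene for 14 of 18 members. It changed in at least 1 for CD40, EDA2R, TNFRSF11A and TNFRSF1A. Among signalling genes, 1 was higher with no filter, the filter at 6, quantile normalization, the trend and robust setting or averaged probe sets (BIRC2 each time). The number lower was 1 with the trend and robust setting or averaged probe sets (CHUK). It was also 1 with no _x_at and _s_at probe sets, where CHUK could not be tested and CYLD was called on another probe set, and 0 to 1 with an array left out. Over all genes, 14 to 91 were higher and 24 to 135 lower with an array left out, against 99 and 132.

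With the replicate number as a block, 0 member genes and 0 signalling genes were called, and 16 genes were higher and 16 lower over all genes. Arrays with the same number did not deviate together (r = -0.36, -0.27 and -0.0019 for replicates 1, 2 and 3), so the numbers were not taken as pairs. For arrays of different numbers r ran from -0.23 (mock 3 and treated 2) to 0.40 (mock 1 and treated 2). Whether arrays of the groups share a batch was not tested. Low signal limits the 27 members below the filter, for which a change cannot be read, and 3 arrays per group limit the rest.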
